A study of Sus scrofa with 2 samples.

Results

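GLIS3, JAZF1, TCF7L2, GRK5, DGKB, PTPRD, KCNQ1, ADAMTS9 and GRB10 lie at or near loci that human association studies have linked to the risk of type 2 diabetes. These 9 genes were taken by their symbols from the 31908 genes of both count matrices, where each symbol named 1 gene, and they were followed through every cell class of the pig pancreas. The data were single-nucleus RNA-sequencing (snRNA-seq) libraries, in which a droplet method counts unique molecular identifiers (UMIs), each standing for 1 captured RNA molecule of a nucleus. One library came from a wild-type (WT) Bama pig. The other came from a transgenic Bama pig of the PIGinH11 line. This line carries a dominant-negative receptor for glucose-dependent insulinotropic polypeptide (GIPRdn), human islet amyloid polypeptide (hIAPP) and the human variant PNPLA3I148M, which the study placed at the H11 locus under promoters for beta cells or liver. Both pigs were male and 18 months old, ate a control diet until 6 months of age and then a high-fat and high-sucrose diet (HFHSD; 37% sucrose, 53% control diet, 10% lard) for 12 months. Each group had 1 pig, 1 tissue piece from the body of the pancreas and 1 library. No test between the groups was therefore possible, and all differences below are between these libraries. Every interval is a 95% interval that covers counting error only, not the spread between pigs, tissue pieces or nuclei.

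A genetic risk locus names a stretch of genome, and the gene that carries the effect and the cell in which it acts are often unknown. This is why the cell classes that express a candidate gene are of interest. The pancreas holds acinar cells that make digestive enzymes, ductal cells that make the bicarbonate-rich fluid, and islets whose alpha, beta and delta cells release glucagon, insulin and somatostatin. The 9 genes act at different points. GLIS3, JAZF1 and TCF7L2 are nuclear regulators of transcription. GRK5, DGKB, PTPRD and GRB10 act in signalling at or below the cell membrane, KCNQ1 is a potassium channel, and ADAMTS9 is a secreted protease.

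In the pig genome build Sscrofa11.1, the genes were long, which bears on nuclear RNA because many of its reads fall in introns. GLIS3 lies on chromosome 1 from 217572604 to 218117629 (545 kb) and PTPRD on the same chromosome from 211832409 to 214013013 (2181 kb), which made PTPRD the longest of the set. DGKB spans 787 kb of chromosome 9 (83571927 to 84358712), and GRB10, the shortest at 162 kb, lies further along it (136580363 to 136742552). TCF7L2 (123343695 to 123547332, 204 kb) and GRK5 (129113933 to 129351135, 237 kb) share chromosome 14. JAZF1 lies on chromosome 18 (44488530 to 44827101, 339 kb), KCNQ1 on chromosome 2 (1675323 to 1989110, 314 kb) and ADAMTS9 on chromosome 13 (46033753 to 46209238, 175 kb). Levels are given as CPM, the UMIs of a gene in a class and library scaled to a class total of 1000000 UMIs. They were compared between classes or libraries for the same gene, never between genes of different length.

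The libraries differed in depth. The WT library held 13619 barcodes and 55784067 UMIs (median 3216 UMIs per barcode), and the PIGinH11 library held 14964 barcodes and 26228811 UMIs (median 1181.5). After filters and doublet removal, 11854 WT and 13126 PIGinH11 nuclei were retained, and 60 barcode sequences occurred in both libraries. Clustering gave 11 classes, each called after markers that did not include the 9 genes. The WT and PIGinH11 libraries contributed 8446 and 9028 acinar-like nuclei, 2152 and 2188 ductal-like, 61 and 81 alpha-like, 126 and 136 beta-like, and 26 and 65 delta-like nuclei. There were also 238 and 376 endothelial-like, 162 and 188 stellate-like, 29 and 60 mural-like, 25 and 32 macrophage-like, 26 and 50 lymphocyte-like, and 41 and 51 Schwann-like nuclei. INS reached 8460 CPM in WT and 5019 CPM in PIGinH11 beta-like nuclei, GCG 4227 and 3179 CPM in alpha-like nuclei, and SST 2093 and 2232 CPM in delta-like nuclei. Of the markers used, 8 of 12 for beta-like and 4 of 8 for delta-like nuclei were highest in their own class in both libraries, so the delta-like label rests on fewer markers than the others. The remaining classes reached from 7 of 9 (acinar-like) to 9 of 9 (stellate-like), 8 of 8 (lymphocyte-like), 7 of 7 (mural-like), 6 of 6 (macrophage-like) and 5 of 5 (Schwann-like) markers.

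UMIs of genes that a class should lack were found in both libraries. Such UMIs can come from free RNA, but their source was not tested. INS stood at 226 CPM in WT and 92.7 CPM in PIGinH11 acinar-like nuclei, which should lack it. In beta-like nuclei the summed level of the acinar markers was 15.8% of that in the acinar-like class in WT and 26.0% in PIGinH11. Each subcluster was then scored over the nuclei of both libraries pooled. Subclusters that carried 25% or more of the acinar or ductal marker level were left out as mixed. This limit was set after the values were seen. The beta-like subcluster carried 19.5% of the acinar level in the pooled nuclei and was kept. Those left out were 160 WT nuclei (1.35%) and 724 PIGinH11 nuclei (5.52%). By class they took 21.1% of WT and 49.0% of PIGinH11 endocrine nuclei, 14.7% and 32.5% of endothelial, 16.5% and 28.5% of stellate, 23.7% and 33.3% of mural, 20.8% and 40.5% of immune, and 8.89% and 66.7% of Schwann nuclei. The study described an endocrine cluster with acinar regulators and proposed that it might be a transition state. Whether the endocrine nuclei left out here belong to that cluster was not tested.

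The 9 genes were spread over nearly all compartments. The highest class was ductal-like for GLIS3, TCF7L2 and KCNQ1, beta-like for JAZF1 and DGKB, alpha-like for PTPRD, mural-like for GRK5 and acinar-like for GRB10, in both libraries. ADAMTS9 was highest in ductal-like nuclei in WT and in endothelial-like nuclei in PIGinH11. The highest class was therefore the same in both libraries for 8 of the 9 genes. Of 10785 named genes with at least 200 UMIs, 41.7% kept 1 highest class. For 5 genes (GLIS3, GRK5, DGKB, KCNQ1 and GRB10) that class also stood at least 2-fold above the next class in both libraries, against 9.4% of the 10785 genes. The 9 genes were chosen with earlier results of these data known, so the counts beside these shares are a description. All 9 also had more UMIs than the minimum of 200, the fewest being 1078 in WT and 770 in PIGinH11 for PTPRD. The 10785 genes were not matched for this.

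**Figure D1:**
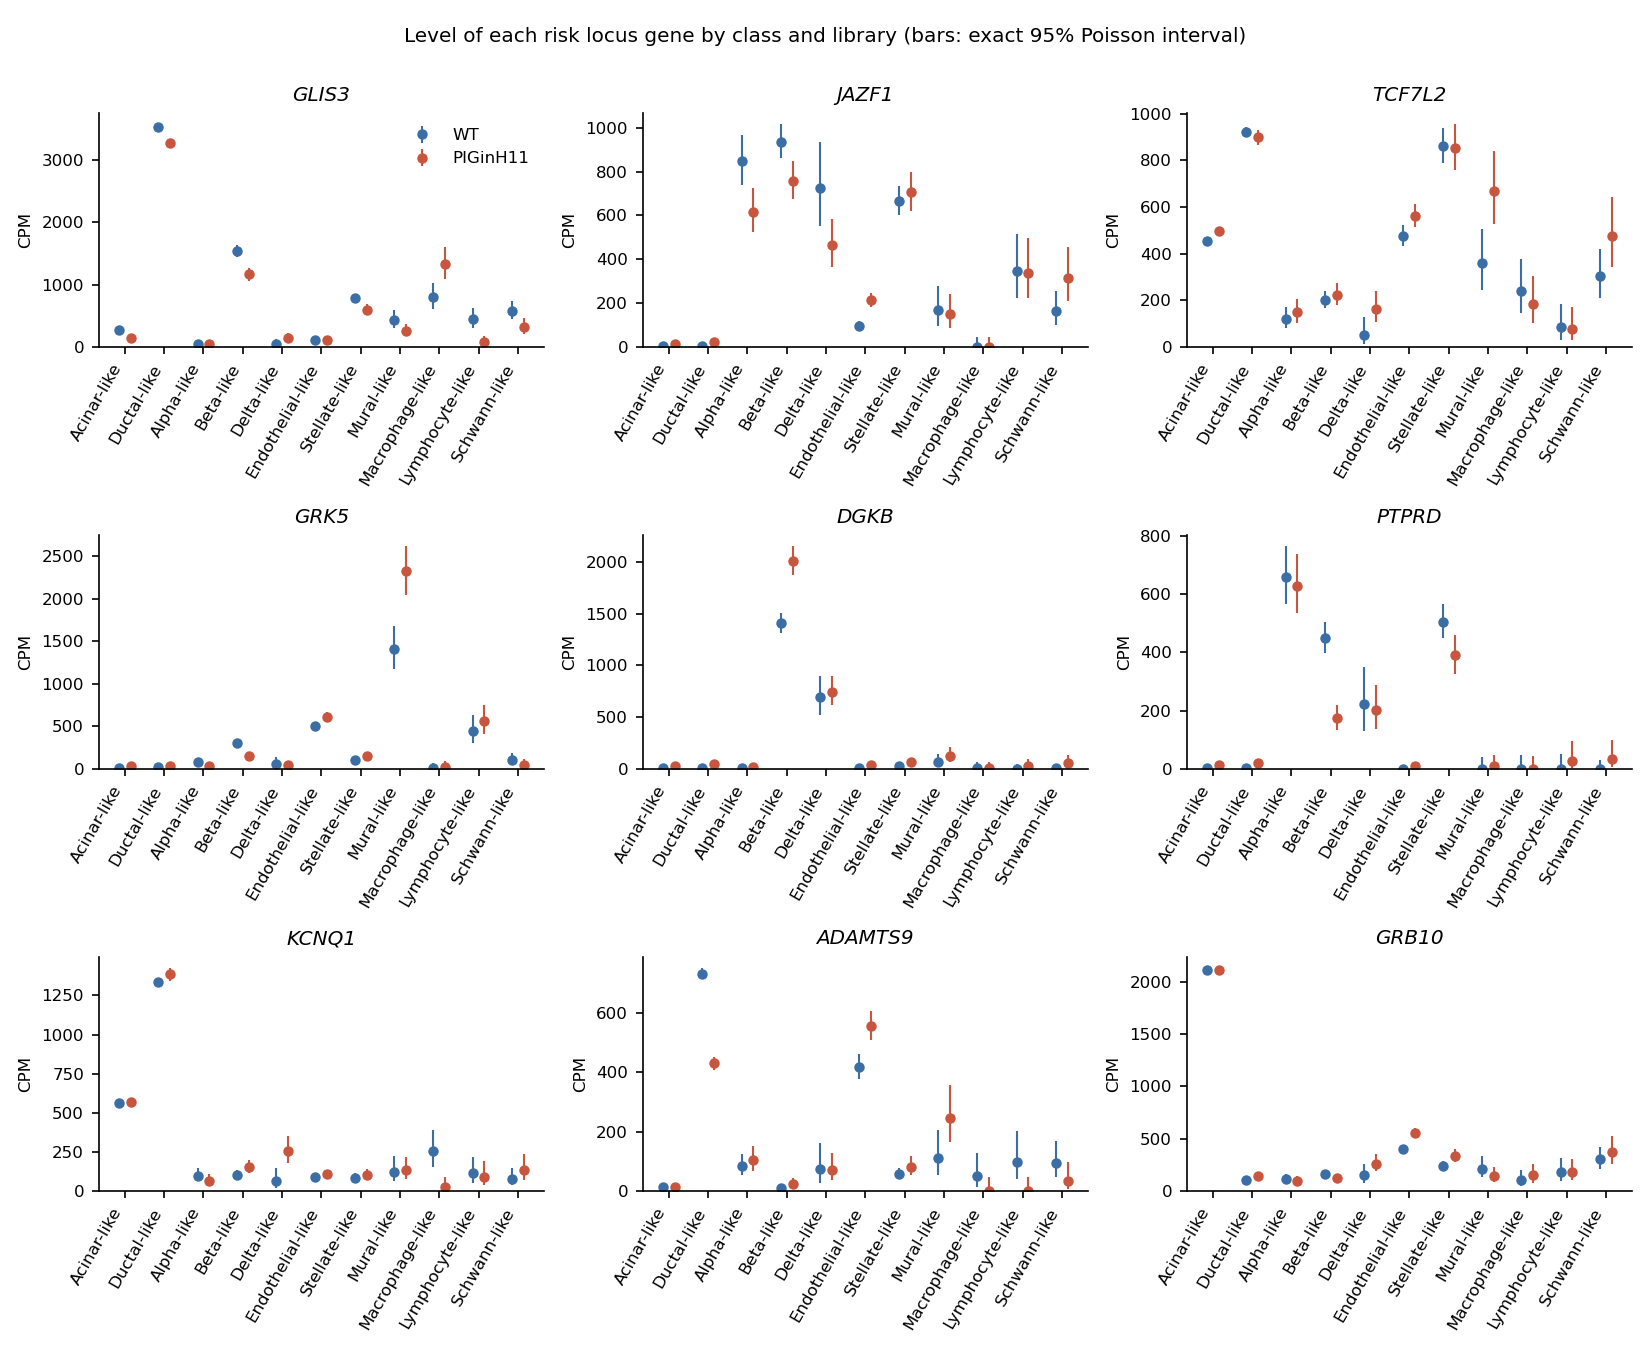
Level of each of the 9 genes (y axis, CPM, linear from 0) in the 11 classes (x axis), with WT in blue and PIGinH11 in red. Points are the summed level of a class in 1 library and bars the exact 95% Poisson interval. GRB10 stands out in acinar-like nuclei at 2109 and 2108 CPM, DGKB in beta-like nuclei at 1405 and 2007 CPM, and GRK5 in mural-like nuclei at 1404 and 2319 CPM.

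The 9 genes and 11 classes gave 99 pairs, and 57 of them had 20 UMIs or more in both libraries, the minimum for a ratio. The ratio is the log2 of the PIGinH11 level over the WT level. It was at least 1 (2-fold higher in PIGinH11) in 7 pairs, at most -1 in 2 pairs and between these in 48. The counting interval lay above 0 in 21 pairs, below 0 in 13 and held 0 in 23. The same shares over all genes were not computed, so these interval counts only describe the pairs. In acinar-like nuclei 3 of 9 genes were past 2-fold higher, where 16.4% of all 15725 genes with the minimum were, and 0 were past 2-fold lower (2.16% of all genes). In ductal-like nuclei it was 3 of 9 higher, against 11.7% of 11166 genes, and 0 lower, against 1.76%. In endothelial-like nuclei 1 of 7 was past 2-fold higher, against 1.92% of 5826 genes, and 0 lower, against 2.42%. Exocrine nuclei thus held most of the pairs past 2-fold higher, in classes where many other genes were as well. In beta-like nuclei 2 of 8 were past 2-fold lower, against 1.46% of 3711 genes, and 0 higher, against 3.42%.

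In the other 7 classes 0 of the evaluable genes passed 2-fold in either direction. With the mixed subclusters kept, GLIS3 (-1.67) and GRB10 (1.28) passed it in Schwann-like and ADAMTS9 (1.10) in stellate-like nuclei. Without them, the shares of all genes past 2-fold higher and lower in these 7 classes were 1.84% and 1.52% in alpha-like (5 of the 9 genes evaluable), 1.35% and 5.63% in delta-like (2), and 3.59% and 1.63% in stellate-like nuclei (8). They were 3.71% and 7.01% in mural-like (3), 5.16% and 3.73% in macrophage-like (1), 1.64% and 2.62% in lymphocyte-like (2), and 3.8% and 3.14% in Schwann-like nuclei (3). The median log2 ratio of all genes was 0.23 in the acinar-like class and 0.15 in the ductal-like class. For beta-like nuclei the median was 0.09, for endothelial-like nuclei 0.04, and the other classes lay between -0.14 and 0.14. In the exocrine classes long genes had higher medians. The 200 genes nearest in length to PTPRD had 0.65 in acinar-like and 1.11 in ductal-like nuclei. Those nearest to DGKB had 0.60 and 0.99, and those nearest to JAZF1 0.58 and 0.47. A length was known for 70.9% and 79.9% of the genes of these classes.

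**Figure D2:**
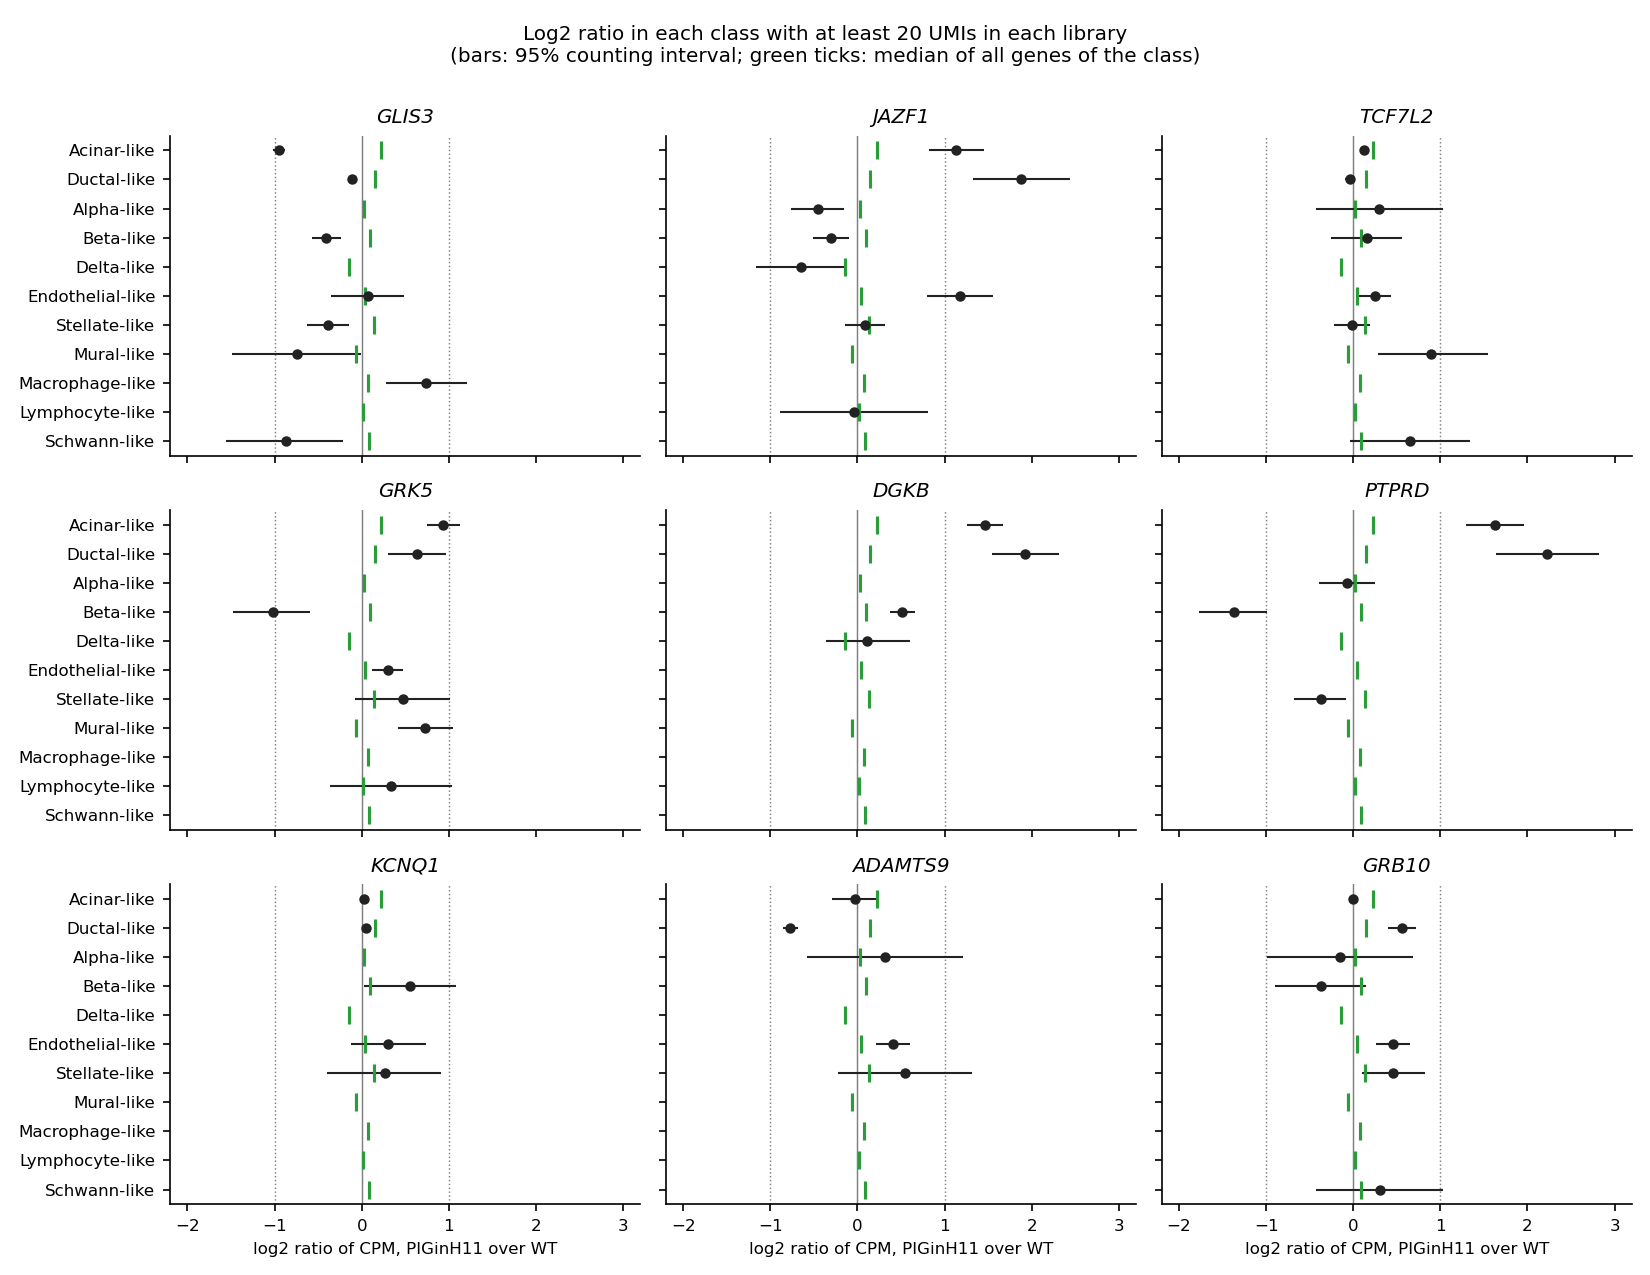
Log2 ratio of PIGinH11 over WT (x axis) for each gene in those classes (y axis) where both libraries had 20 UMIs or more. Points are ratios, bars 95% counting intervals, green ticks the median of all genes of that class, and dotted lines a 2-fold difference. PTPRD ranges from -1.37 in beta-like to 2.22 in ductal-like nuclei, whereas the ratios of KCNQ1 lie between 0.02 and 0.56.

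GLIS3, a zinc finger factor needed for islet development and INS transcription, was mainly a ductal gene in these tissues. Its level in ductal-like nuclei was 3537 CPM (3497 to 3577) in WT and 3276 CPM (3215 to 3338) in PIGinH11, 2.30-fold and 2.46-fold above the next class. That class was beta-like in WT, at 1539 CPM (1442 to 1641), and macrophage-like in PIGinH11, where the beta-like level was 1163 CPM (1059 to 1274). The ductal-like nuclei held 74.8% of all GLIS3 UMIs in WT and 75.7% in PIGinH11. At least 1 GLIS3 UMI was found in 96.7% of WT and 84.0% of PIGinH11 ductal-like nuclei, and in 75.8% and 69.6% after every nucleus was thinned to 500 UMIs. In acinar-like nuclei, at median depths of 2848.5 and 1204.5 UMIs, the share was 45.5% and 17.9%, and 13.8% and 7.64% after thinning. Below the beta-like class in WT, the intervals of macrophage-like (796 CPM), stellate-like (782 CPM), Schwann-like (578 CPM), lymphocyte-like (446 CPM) and mural-like (427 CPM) nuclei overlapped from neighbour to neighbour. Alpha-like nuclei were the lowest, at 45.3 CPM in WT and 49.4 CPM in PIGinH11, which sets them apart from beta-like nuclei within the islet. Delta-like nuclei stood at 49.3 CPM (4 UMIs) in WT and 151 CPM (23 UMIs) in PIGinH11, too few in WT for a ratio. Endothelial-like nuclei stood at 103 and 108 CPM. In PIGinH11 the macrophage-like class overlapped the beta-like one and stellate-like nuclei stood apart from both, at 599 CPM.

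GLIS3 was lower in PIGinH11 in 6 of 8 classes with a ratio, all 6 with an interval below 0. In acinar-like nuclei the level was 267 CPM in WT and 138 CPM in PIGinH11, a log2 ratio of -0.95 (-1.02 to -0.88) that stood at percentile 2.4 of the genes of this class. It was lower in PIGinH11 in all 6 acinar subclusters, which ran from 163 to 326 CPM in WT and from 117 to 183 CPM in PIGinH11. Among the classes used to set free RNA, PIGinH11 acinar-like nuclei had the lowest GLIS3 count in that library, 0.237 UMIs per nucleus. The acinar-like ratio therefore had no value with free RNA subtracted. The level of ductal markers in acinar-like nuclei was 1.46% of that in the ductal-like class in WT and 2.06% in PIGinH11, and its part in the difference was not tested. The ratio was -0.40 (-0.57 to -0.24) in beta-like, -0.38 (-0.63 to -0.15) in stellate-like, -0.87 (-1.56 to -0.21) in Schwann-like and -0.74 (-1.49 to -0.00) in mural-like nuclei. In ductal-like nuclei it was -0.11 (-0.14 to -0.08), at percentile 29.0.

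Macrophage-like nuclei went the other way for GLIS3. They held 796 CPM (63 UMIs in 25 nuclei) in WT and 1331 CPM (108 UMIs in 32 nuclei) in PIGinH11, a log2 ratio of 0.74 (0.28 to 1.21). The ductal marker level in these nuclei was 8.27% in WT and 1.54% in PIGinH11, and its part was not tested. In lymphocyte-like nuclei GLIS3 had 32 UMIs in WT and 6 in PIGinH11, too few for a ratio, and 28 of the 32 came from 1 nucleus. There the ductal marker level was 9.35% in WT and 3.00% in PIGinH11, and its part in the difference was not tested.

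Of the GLIS and GLI relatives, 4 of 5 had at least 200 UMIs, 2 kept their highest class, and the same 2 had a leading class. GLI2, a factor of hedgehog signalling, led in stellate-like nuclei at 331 CPM in WT and 359 CPM in PIGinH11, and GLIS1 led there at 71.2 and 65.005 CPM. GLI3 was highest in mural-like nuclei in WT (517 CPM) and in stellate-like nuclei in PIGinH11 (630.3 CPM). GLIS2 in ductal-like nuclei stood at 67.6 CPM in WT and 41.3 CPM in PIGinH11, a log2 ratio of -0.71 (-0.99 to -0.44).

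JAZF1, a zinc finger protein of a chromatin complex with acetyltransferase activity, was high in the islet and stellate-like nuclei and low in exocrine nuclei. Beta-like nuclei held 937 CPM (861 to 1017) in WT and 759 CPM (675 to 849) in PIGinH11. The alpha-like level was 848 CPM in WT and 618 CPM in PIGinH11, the delta-like level 727 and 465 CPM, and the stellate-like level 665 and 707 CPM. The intervals of these 4 classes overlapped from neighbour to neighbour in both libraries, so none of them led. Lymphocyte-like (348 and 339 CPM), mural-like (168 and 150 CPM) and Schwann-like nuclei (164 and 316 CPM) formed a middle group whose neighbours overlapped. The Schwann-like levels rested on 19 UMIs in WT and 28 in PIGinH11, too few in WT for a ratio. Acinar-like and ductal-like nuclei were at 5.46 and 5.58 CPM in WT and at 12.0 and 20.5 CPM in PIGinH11. No JAZF1 UMI was found in macrophage-like nuclei, which allows a level of up to 37.9 CPM in WT and 37.0 CPM in PIGinH11 (3 counts of the class total).

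In each islet class JAZF1 was lower in PIGinH11, with intervals below 0. The log2 ratio was -0.30 (-0.51 to -0.10) in beta-like, -0.46 (-0.77 to -0.15) in alpha-like and -0.64 (-1.16 to -0.12) in delta-like nuclei. In stellate-like nuclei the ratio was 0.09 (-0.15 to 0.32), and 4 of the alternatives of processing gave the other sign. Endothelial-like nuclei were higher in PIGinH11, with 94.1 CPM (87 UMIs) in WT and 212 CPM (197 UMIs) in PIGinH11. The log2 ratio was 1.17 (0.80 to 1.56), at percentile 99.0 of the endothelial-like class, and JAZF1 was higher in the 4 endothelial subclusters measured, those of the 7 that had at least 20 nuclei in each library. The share of endothelial-like nuclei with a JAZF1 UMI was 17.2% in WT and 25.8% in PIGinH11 although the PIGinH11 nuclei were shallower (median 3840 and 1882 UMIs). After thinning it was 2.52% and 8.24%. Acinar-like nuclei, which had few JAZF1 UMIs, gave shares of 1.84% in WT and 2.03% in PIGinH11. Acinar markers reached 5.04% and 7.01% of the acinar-like level in the endothelial-like nuclei, and their part in the difference was not tested.

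The listed JAZF1 partners, 6 subunits of its complex or proteins that bind or were fused to it, had no leading class among the 6 with enough UMIs. EPC1, a scaffold of the acetyltransferase complex, was highest in mural-like nuclei in WT (842 CPM) and alpha-like nuclei in PIGinH11 (782 CPM). In beta-like nuclei EPC1 had 516 CPM in WT and 643 CPM in PIGinH11, a log2 ratio of 0.32 (0.07 to 0.56), whereas JAZF1 there had a negative one. NR2C2, an orphan nuclear receptor that JAZF1 binds, and SUZ12, a Polycomb subunit, were highest in lymphocyte-like nuclei in both libraries.

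TCF7L2, a DNA-binding factor at the end of the Wnt pathway, was high in several compartments and led in none. Its highest level, in ductal-like nuclei, was 922 CPM (902 to 942) in WT and 899 CPM (867 to 931) in PIGinH11. Stellate-like nuclei followed at 860 and 854 CPM, 1.07-fold and 1.05-fold below, with overlapping intervals. Which of them came first was not stable, since another class was highest in 1 of 11 alternatives in WT and in 5 of 11 in PIGinH11. Beta-like nuclei held less, 200.3 CPM (166 to 239) in WT and 224 CPM (180 to 275) in PIGinH11, alpha-like nuclei 121 and 148 CPM, and delta-like nuclei 49.3 and 164 CPM. The delta-like levels rested on 4 UMIs in WT and 25 in PIGinH11, too few in WT for a ratio. Mural-like nuclei were at 359 and 670.1 CPM, Schwann-like nuclei at 302 and 474 CPM and endothelial-like nuclei at 475 and 563 CPM. Because acinar-like nuclei are so many, they held 59.1% of the TCF7L2 UMIs in WT and 62.4% in PIGinH11 at a level of 455 and 497 CPM.

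The log2 ratio of TCF7L2 was close to 0 in ductal-like (-0.04, -0.10 to 0.02), stellate-like (-0.01, -0.22 to 0.20) and beta-like nuclei (0.16, -0.25 to 0.57). In acinar-like nuclei it was 0.13 (0.09 to 0.17), higher in 6 of 6 subclusters, but below the class median of 0.23, and it turned to -0.10 when libraries were scaled by the median of gene ratios. Endothelial-like nuclei had 0.25 (0.06 to 0.43), which became 1.97 with free RNA subtracted. The ductal-like ratio became -0.61 in that setting. For TCF7L2 the amount subtracted was the level per acinar-like nucleus, 1.63 UMIs in WT and 0.853 in PIGinH11. Acinar-like nuclei stood at 455 and 497 CPM, and the part of their own RNA in this amount was not tested. In mural-like nuclei the ratio was 0.90 (0.28 to 1.54), from 359 CPM (32 UMIs) in WT and 670.1 CPM (76 UMIs) in PIGinH11. Of the mural-like nuclei, 3 of 29 in WT and 26 of 60 in PIGinH11 lay in mural subcluster 3, and the part of this was not tested. Macrophage-like nuclei had 19 UMIs in WT and 15 in PIGinH11, too few for a ratio.

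Other genes of the Wnt pathway were measured in 9 of 10 cases, of which 7 kept the same highest class and 2 had a leading class. LRP5, a Wnt co-receptor, led in acinar-like nuclei (352 CPM in WT and 400.1 CPM in PIGinH11), and APC, a scaffold of the beta-catenin destruction complex, led in macrophage-like nuclei (1226 and 1171 CPM). LEF1, a lymphoid relative of TCF7L2, was highest in lymphocyte-like nuclei, at 432 and 313 CPM. CTNNB1, which encodes beta-catenin, was highest in endothelial-like nuclei at 255 and 270 CPM. In beta-like nuclei the corepressor TLE1 had 204 CPM in WT and 143 CPM in PIGinH11, a log2 ratio of -0.51 (-0.99 to -0.04).

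GRK5, a kinase that turns off G protein-coupled receptors, was highest in the cells of the vessel wall. Mural-like nuclei held 1404 CPM (1169 to 1673) in WT and 2319 CPM (2047 to 2617) in PIGinH11. Endothelial-like nuclei followed at 499 CPM (454 to 546) and 612 CPM (563 to 665), so the mural-like level stood 2.82-fold and 3.79-fold above. In lymphocyte-like nuclei the level was 446 CPM in WT and 561 CPM in PIGinH11, with intervals that overlapped those of endothelial-like nuclei. Acinar-like nuclei, at 14.8 and 28.3 CPM, and macrophage-like nuclei, with 1 and 2 UMIs, were the lowest, and ductal-like nuclei held 23.3 and 36.2 CPM. Among the islet classes, beta-like nuclei stood apart, at 301 CPM in WT and 148 CPM in PIGinH11. Alpha-like nuclei held 86.7 and 32.9 CPM (23 and 8 UMIs) and delta-like nuclei 61.6 and 45.8 CPM (5 and 7 UMIs). The intervals of these last classes overlapped in both libraries. Stellate-like nuclei stood at 110.2 CPM in WT and 153 CPM in PIGinH11.

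GRK5 differed between the libraries in opposite directions by class. In mural-like nuclei the log2 ratio was 0.72 (0.41 to 1.04) and rested on 29 WT and 60 PIGinH11 nuclei. The libraries were split differently over its subclusters, with 26 WT and 34 PIGinH11 nuclei in mural subcluster 1 and 3 and 26 in mural subcluster 3, and the part of this in the mural-like ratios was not tested. They had a GRK5 UMI in 86.2% and 83.3% of them. Endothelial-like nuclei had 0.30 (0.12 to 0.48), whereas the interval of stellate-like nuclei (0.47) held 0. The ratio was 0.94 (0.74 to 1.13) in acinar-like and 0.64 (0.30 to 0.97) in ductal-like nuclei, the latter at -0.024 after thinning. Acinar-like nuclei set the amount of free RNA for GRK5 in both libraries, so the acinar-like ratio had no value with free RNA subtracted. In beta-like nuclei the level was 301 CPM (182 UMIs) in WT and 148 CPM (59 UMIs) in PIGinH11, a log2 ratio of -1.02 (-1.47 to -0.59) at percentile 1.3 of the class. The share of beta-like nuclei with a GRK5 UMI was 50.0% in WT and 22.1% in PIGinH11 (median depths 4225.5 and 2146 UMIs), and 13.5% and 7.35% after thinning. In acinar-like nuclei, as a comparison, the share was 3.82% in WT and 3.95% in PIGinH11. In all nuclei together GRK5 was higher in PIGinH11, with a log2 ratio of 1.02 (0.93 to 1.12), while mural-like nuclei held 7.51% of its UMIs in WT and 15.1% in PIGinH11 and endothelial-like nuclei 27.7% and 32.7%.

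Among the other GRK genes, 5 of 6 had enough UMIs, 3 kept their highest class and 0 had a leading class. GRK3, the one with the most UMIs, stood at 1105 CPM in WT and 663 CPM in PIGinH11 in ductal-like nuclei, a log2 ratio of -0.74 (-0.80 to -0.67). In beta-like nuclei GRK3 had 556 and 555 CPM, a log2 ratio of -0.00 (-0.25 to 0.25), beside the -1.02 of GRK5.

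DGKB, a kinase that removes the second messenger diacylglycerol, was a beta and delta cell gene. Beta-like nuclei held 1405 CPM (1312 to 1503) in WT and 2007 CPM (1870 to 2151) in PIGinH11. Delta-like nuclei held 690 CPM (521 to 896) and 746 CPM (615 to 896), so that beta-like nuclei stood 2.04-fold and 2.69-fold above them. Alpha-like nuclei had 3 UMIs in WT and 4 in PIGinH11 (11.3 and 16.5 CPM). Outside the islet mural-like nuclei stood at 67.4 CPM (6 UMIs) in WT and 123 CPM (14 UMIs) in PIGinH11, with intervals that overlapped those of stellate-like nuclei at 27.1 and 62.2 CPM, followed in PIGinH11 by Schwann-like nuclei at 56.4 CPM. Within the islet, DGKB thus separated alpha-like from beta-like nuclei, as GLIS3 did. JAZF1 had high levels in both classes, and so had PTPRD in WT. In PIGinH11, PTPRD stood at 630 CPM (534 to 738) in alpha-like and 173 CPM (135 to 219) in beta-like nuclei. The 126 WT beta-like nuclei, 1.06% of the library, held 59.9% of all DGKB UMIs, and the 136 PIGinH11 beta-like nuclei, 1.04%, held 47.4%.

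In beta-like nuclei DGKB was higher in PIGinH11, with a log2 ratio of 0.51 (0.37 to 0.66) at percentile 81.9, and it had a UMI in 82.5% of WT and 87.5% of PIGinH11 nuclei. After thinning the shares were 45.2% and 58.8%. In acinar-like nuclei the shares before thinning were 3.73% and 4.73%. In delta-like nuclei the ratio was 0.11 (-0.36 to 0.60). All 5 other DGK genes with enough UMIs in beta-like nuclei had positive ratios, with a median of 0.53 beside the class median of 0.09. They included DGKG, a calcium-regulated isoform (309 CPM in WT and 447 CPM in PIGinH11, 0.53, 0.23 to 0.83) and DGKH (172 and 271 CPM, 0.66, 0.25 to 1.06). The intervals of DGKD, DGKE and DGKZ held 0. None of the 8 other DGK genes with at least 200 UMIs had a leading class.

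PTPRD, a receptor tyrosine phosphatase that organises neuronal synapses, was shared by alpha-like, stellate-like, beta-like and delta-like nuclei. Alpha-like nuclei held 660 CPM (566 to 765) in WT and 630 CPM (534 to 738) in PIGinH11. Stellate-like nuclei held 505 and 390 CPM, beta-like nuclei 449 and 173 CPM, and delta-like nuclei 222 and 203 CPM. Among WT nuclei of the mural-like, macrophage-like, lymphocyte-like and Schwann-like classes no PTPRD UMI was found. The 4 expressing classes were thus separated from the rest, as the next WT class, ductal-like, stood at 4.65 CPM.

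The largest deficit in PIGinH11 among the 57 ratios was that of PTPRD in beta-like nuclei. It had 449 CPM (397 to 505; 271 UMIs) in WT and 173 CPM (135 to 219; 69 UMIs) in PIGinH11, a log2 ratio of -1.37 (-1.77 to -0.99) at percentile 0.62 of this class. The share of beta-like nuclei with a PTPRD UMI was 65.1% in WT and 27.2% in PIGinH11, at median depths of 4225.5 and 2146 UMIs. At equal depth, after thinning, it was 13.5% of 126 and 6.62% of 136 nuclei. Acinar-like nuclei gave 1.46% and 2.19%. The ratio lay between -1.47 and -1.26 in all 13 settings that gave it a value, and thinning left too few UMIs for one. The beta-like nuclei had acinar markers at 15.8% in WT and 26.0% in PIGinH11, and the part of this in the differences of PTPRD and GRK5 there was not tested. Alpha-like nuclei had a log2 ratio of -0.07 (-0.39 to 0.25) and stellate-like nuclei -0.37 (-0.68 to -0.08). Of all PTPRD UMIs, beta-like nuclei held 25.1% in WT and 8.96% in PIGinH11. Of the other type IIa receptor phosphatases, PTPRF led in ductal-like nuclei (289 CPM in WT and 369 CPM in PIGinH11) and PTPRS had no leading class. In beta-like nuclei PTPRF had a log2 ratio of 0.67 (0.04 to 1.30) and PTPRS -0.05 (-0.79 to 0.67).

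**Figure D3:**
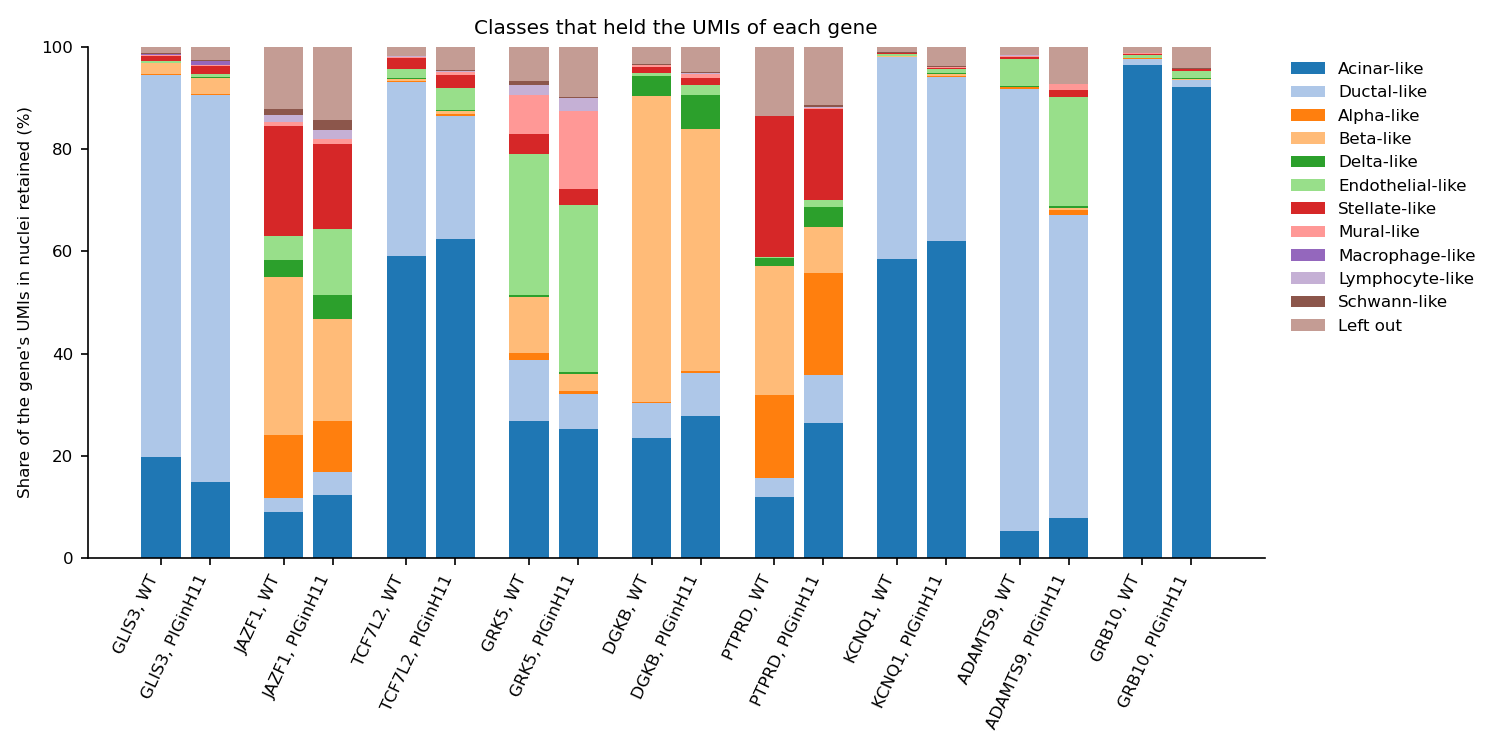
Share of the UMIs of each gene (y axis, percent of its UMIs in the retained nuclei of a library) held by each class, with 1 bar per gene and library; "left out" are nuclei without a class. Acinar-like nuclei hold 96.4% and 92.2% of GRB10 UMIs, ductal-like nuclei 74.8% and 75.7% of GLIS3 UMIs, and the endothelial-like share of ADAMTS9 is 5.32% in WT and 21.4% in PIGinH11.

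JAZF1, DGKB and PTPRD accounted for 6 of the 7 pairs past 2-fold higher in PIGinH11, all in acinar-like and ductal-like nuclei, where their levels were low. In ductal-like nuclei the log2 ratio was 1.88 (1.32 to 2.44) for JAZF1, 1.92 (1.54 to 2.31) for DGKB and 2.22 (1.64 to 2.82) for PTPRD. In acinar-like nuclei it was 1.14 (0.83 to 1.45), 1.47 (1.26 to 1.67) and 1.63 (1.30 to 1.95). The counts behind them were few per nucleus. JAZF1 had 0.0195 UMIs per acinar-like nucleus in WT and 0.0206 in PIGinH11, DGKB 0.0393 and 0.0521, and PTPRD 0.0153 and 0.0226, and no acinar-like or ductal-like nucleus held more than 4 UMIs of any of them. Per acinar-like nucleus, the libraries were thus closer than per UMI, as the PIGinH11 nuclei held fewer UMIs. Among 2152 WT and 2188 PIGinH11 ductal-like nuclei, PTPRD had 40 and 72 UMIs, DGKB 97 and 142, and JAZF1 48 and 68. Within the acinar-like class all 3 genes were highest in subcluster 1 of both libraries, where DGKB stood at 30.6 CPM in WT and 77.4 CPM in PIGinH11, JAZF1 at 13.9 and 31.1 CPM, and PTPRD at 12.6 and 36.0 CPM. RNA of other islet genes in acinar-like nuclei went in both directions. INS was lower in PIGinH11 there, with a log2 ratio of -1.29, and so was GCG (32.1 CPM in WT and 16.5 CPM in PIGinH11). SST (2.25 and 4.13 CPM) and ABCC8 were higher in PIGinH11. The parts of free RNA and of gene length in the ratios of JAZF1, DGKB and PTPRD were not tested. With free RNA subtracted the ratio of PTPRD in ductal-like nuclei was 0.92, while JAZF1 and DGKB had no ductal-like value. The amount subtracted for PTPRD came from unlike classes. It was 0.0042 UMIs per nucleus in WT, from endothelial-like nuclei, and 0.0226 in PIGinH11, from acinar-like nuclei. After thinning, DGKB alone of the 3 kept enough UMIs for a ductal-like ratio.

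KCNQ1, the pore subunit of a voltage-gated potassium channel, was highest in the exocrine classes, with similar levels in both libraries. Ductal-like nuclei held 1339 CPM (1314 to 1363.5) in WT and 1385 CPM (1345 to 1425) in PIGinH11, 2.38-fold and 2.42-fold above acinar-like nuclei at 562 CPM (554 to 571) and 571 CPM (559 to 583). The log2 ratio was 0.05 (-0.00 to 0.10) in ductal-like and 0.02 (-0.01 to 0.06) in acinar-like nuclei. With median-of-ratios scaling these became -0.10 and -0.20, so no direction is given. Beta-like nuclei held 104 CPM (63 UMIs) in WT and 153 CPM (61 UMIs) in PIGinH11, a log2 ratio of 0.56 (0.02 to 1.09) that ran from 0.29 to 1.14 over the settings. Delta-like nuclei had 5 UMIs in WT and 39 in PIGinH11 (61.6 and 255 CPM), too few in WT for a ratio. Macrophage-like nuclei had 20 UMIs in WT and 2 in PIGinH11 (253 and 24.6 CPM), and the ductal markers, at 8.27% and 1.54%, moved in the same direction there, with their part not tested. The remaining classes lay between 77.6 CPM (Schwann-like) and 124 CPM (mural-like) in WT and between 65.9 CPM (alpha-like) and 135 CPM (Schwann-like) in PIGinH11, with overlapping neighbours. Of its relatives and partners, 8 of 9 symbols were found, 5 had at least 200 UMIs, 3 kept their highest class and 2 had a leading class. KCNE3, a regulatory subunit that keeps KCNQ1 open in epithelia, also led in ductal-like nuclei, where it was among the markers used to name the class. It stood at 408 CPM in WT and 551 CPM in PIGinH11, a log2 ratio of 0.43. The other KCNQ genes were found elsewhere. KCNQ5 led in lymphocyte-like nuclei (1936 and 1800 CPM), and KCNQ3 was highest in beta-like nuclei (136 and 153 CPM).

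ADAMTS9, a secreted metalloprotease that cleaves proteoglycans of the matrix, had a different highest class in each library. Ductal-like nuclei held 733 CPM (715 to 751) in WT and 430.3 CPM (408 to 453) in PIGinH11, a log2 ratio of -0.77 (-0.85 to -0.69) at percentile 3.6. Endothelial-like nuclei held 419 CPM (378 to 462) in WT and 556 CPM (509 to 606) in PIGinH11, a ratio of 0.41 (0.22 to 0.60) at percentile 82.4. ADAMTS9 was lower in PIGinH11 in all 8 ductal subclusters, which ran from 89.8 to 922 CPM in WT and from 29.5 to 587 CPM in PIGinH11. Among the 4 of 7 endothelial subclusters with at least 20 nuclei in each library, it was higher in 3, and of these 4 it was highest in subcluster 3, at 716 and 839 CPM. The endothelial-like ratio lay between 0.32 and 0.45 in all 14 settings, although the share of endothelial-like nuclei with a UMI was 48.3% in WT and 44.1% in PIGinH11, and 15.97% and 17.0% after thinning. Mural-like nuclei came next at 112 CPM (10 UMIs) in WT and 247 CPM (28 UMIs) in PIGinH11, too few in WT for a ratio. Acinar-like (12.5 and 12.2 CPM) and beta-like nuclei (8.28 and 22.6 CPM) were lowest among classes with a UMI. Ductal-like nuclei held 86.7% of the ADAMTS9 UMIs in WT and 59.2% in PIGinH11.

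Other ADAMTS genes were found under 18 of 19 symbols, of which 13 had at least 200 UMIs, 9 kept their highest class and 1 had a leading class. The leading one was ADAMTS20 in Schwann-like nuclei (1070 CPM in WT and 451 CPM in PIGinH11, a log2 ratio of -1.24, -1.80 to -0.72). ADAMTS18, also highest in ductal-like nuclei, had 735 CPM in WT and 687 CPM in PIGinH11 there. In beta-like nuclei it had 243 and 613 CPM, a log2 ratio of 1.33 (1.03 to 1.64), and ADAMTS17, highest in beta-like nuclei, had 794 and 1128 CPM, a ratio of 0.51 (0.32 to 0.69). ADAMTS9 itself had 5 and 9 UMIs in beta-like nuclei.

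GRB10, an adapter that binds the insulin and IGF1 receptors and dampens their signal, was an acinar gene. Acinar-like nuclei held 2109 CPM (2093 to 2126) in WT and 2108 CPM (2085 to 2131) in PIGinH11, 5.29-fold and 3.84-fold above endothelial-like nuclei, the next class. The log2 ratio was -0.00 (-0.02 to 0.02), at percentile 34.1 of the class, and it was -0.23 with median-of-ratios scaling, so no direction is given. A GRB10 UMI was found in 92.8% of WT and 83.0% of PIGinH11 acinar-like nuclei, and in 59.9% of both after thinning. The level ran from 1449 to 2312 CPM over the 6 acinar subclusters in WT and from 1740 to 2318 CPM in PIGinH11. Endothelial-like nuclei held 399 CPM in WT and 549 CPM in PIGinH11, and Schwann-like nuclei 302 and 372 CPM. Acinar markers stood at 5.04% and 7.01% of the acinar-like level in endothelial-like and at 12.0% and 17.6% in Schwann-like nuclei. In beta-like nuclei GRB10 had 159 CPM (129 to 194) in WT and 123 CPM (91.1 to 163) in PIGinH11, a log2 ratio of -0.37 (-0.90 to 0.14). The sign of that ratio differed in 1 other setting, and acinar markers were at 15.8% and 26.0% there.

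GRB10 was higher in PIGinH11 in ductal-like (0.56, 0.40 to 0.72), endothelial-like (0.46, 0.26 to 0.66) and stellate-like nuclei (0.46, 0.10 to 0.82). It was higher in 8 of 8 ductal subclusters, in the 4 endothelial subclusters measured of 7, and in 2 of 3 stellate subclusters. In the same classes the acinar marker level was also higher in PIGinH11, at 3.80% and 7.54%, 5.04% and 7.01%, and 7.19% and 10.8%, and its part in these differences was not tested. Within the ductal-like class, GRB10 stood at 554 CPM in WT and 609.5 CPM in PIGinH11 in subcluster 7 (55 and 48 nuclei), where acinar markers were at 23.4% of the acinar-like level. Of its binding partners, IGF1R was highest in beta-like nuclei (1716 CPM in WT and 1846 CPM in PIGinH11) and INSR in acinar-like nuclei (484 and 493 CPM). GRB14, of the same adapter family, was also highest in acinar-like nuclei (86.3 and 91.4 CPM). INSR in endothelial-like nuclei had 243 CPM in WT and 459 CPM in PIGinH11, a log2 ratio of 0.92 (0.68 to 1.16). None of the 6 genes on this list had a leading class.

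**Figure D4:**
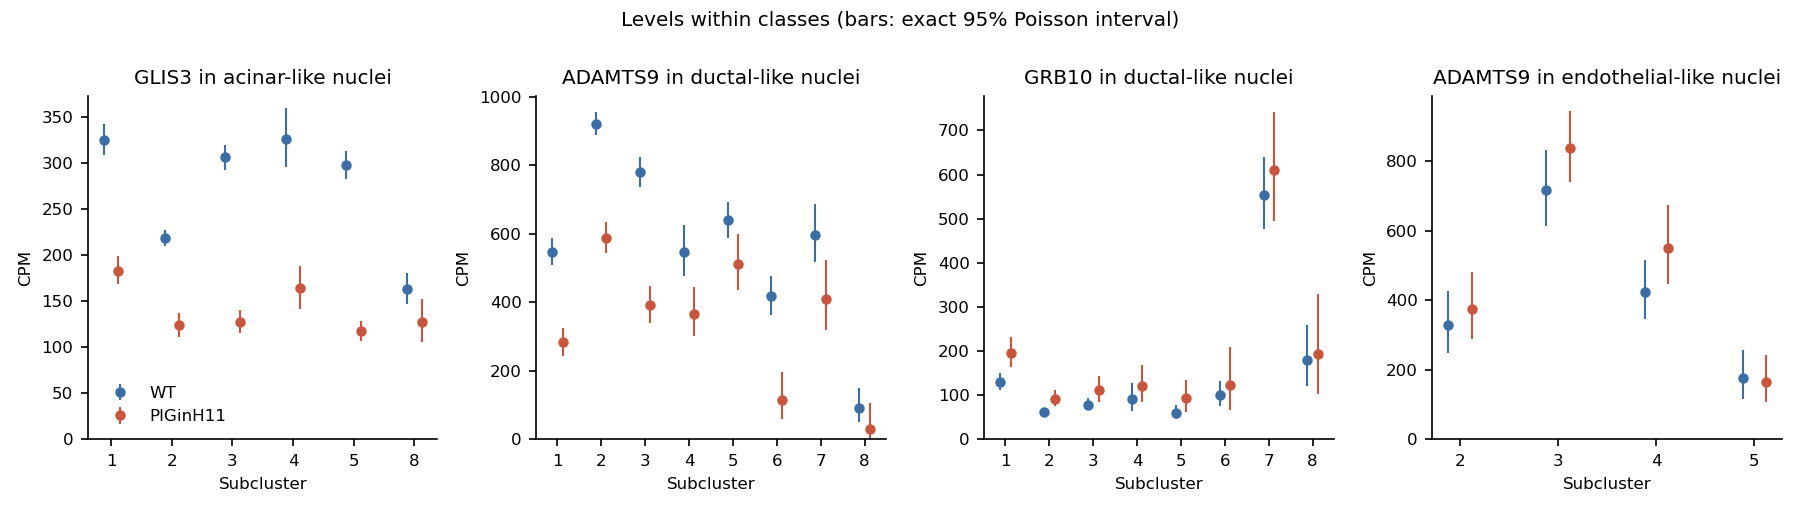
Levels (y axis, CPM, linear from 0) of GLIS3, ADAMTS9 and GRB10 in the subclusters (x axis, by number; those with at least 20 nuclei in each library) of 3 classes, WT in blue and PIGinH11 in red, with exact 95% Poisson intervals. GLIS3 is lower in PIGinH11 in all 6 acinar subclusters and ADAMTS9 in all 8 ductal subclusters, while GRB10 is high in ductal subcluster 7 of both libraries.

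Beta-like nuclei, whose insulin release fails in type 2 diabetes, gave a ratio for 8 of the 9 genes. The median of the 8 was -0.34, beside the class median of 0.09, with 5 below 0 and 3 above. The intervals of GRB10, among the 5, and of TCF7L2, among the 3, held 0. The share of all genes of the class below 0 was not computed, and the 9 genes were chosen with earlier results of these data known. The counts and medians therefore only describe these genes. The median of 28 other genes of type 2 diabetes risk loci with enough UMIs in beta-like nuclei was 0.10, with 16 higher and 12 lower and 0 past 2-fold in either direction. INS, which is also a class marker, was the lowest of them at -0.75 (-0.83 to -0.68). It was followed by KCNJ11 (-0.65, -1.27 to -0.06), the pore of the ATP-sensitive potassium channel, TLE1 (-0.51), and SLC2A2 (-0.50, -0.70 to -0.30), a glucose transporter. SLC2A2 had 1086 CPM in WT and 766 CPM in PIGinH11. Among those with the highest ratios were MPHOSPH9 (0.46, -0.13 to 1.05), PAM (0.46, 0.24 to 0.68), CDKAL1 (0.40, 0.11 to 0.68) and CAMK1D (0.37).

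**Figure D5:**
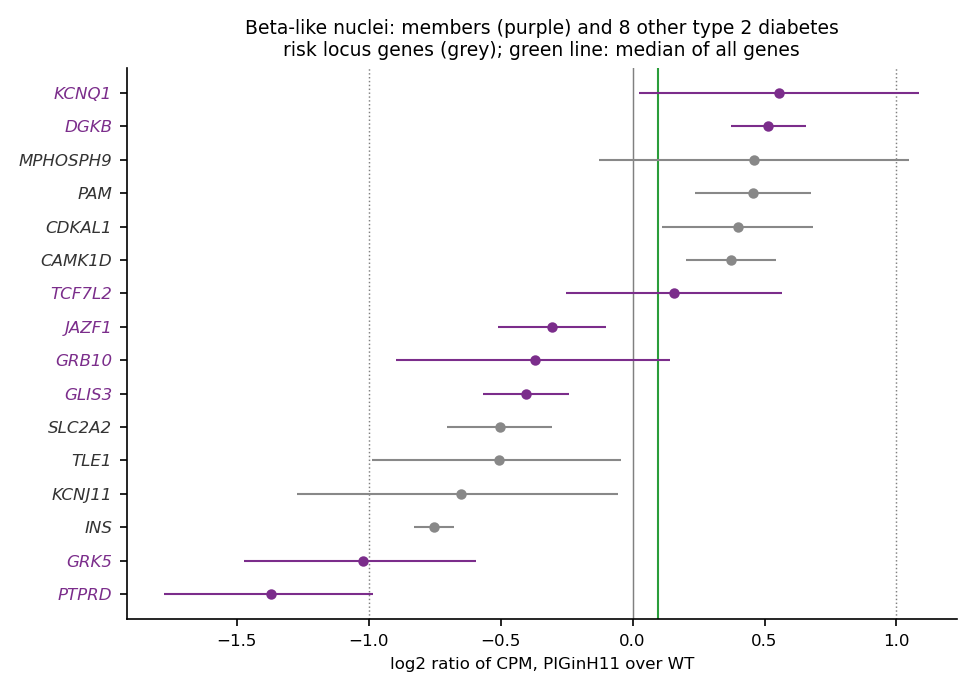
Log2 ratio of PIGinH11 over WT (x axis) in beta-like nuclei for 8 of the 9 genes (purple) and 8 of the 28 other genes of type 2 diabetes risk loci, those named with a ratio above (grey), ordered by ratio (y axis). Bars are 95% counting intervals, the green line is the median of all genes of the class (0.09) and dotted lines mark a 2-fold difference. PTPRD at -1.37 and GRK5 at -1.02 are the lowest of the 16 genes plotted.

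Across the whole list of other risk locus genes, 69 of 79 symbols were found and 61 had at least 200 UMIs. Of these, 33 kept their highest class and 9 had a leading class, where 41.7% and 9.4% of all named genes did. Among the latter, ADCY5, an adenylyl cyclase, led in mural-like nuclei (483 CPM in WT and 723 CPM in PIGinH11) and ARL15 in endothelial-like nuclei (4449 and 4322 CPM). INS and SLC2A2 led in beta-like nuclei, UBE2E2 in macrophage-like and RASGRP1 in lymphocyte-like nuclei. In acinar-like nuclei 9 of 62 were past 2-fold higher and 1 past 2-fold lower, the latter being INS, where 16.4% and 2.16% of all genes were. In ductal-like nuclei 4 of 52 were past 2-fold higher and 0 lower, against 11.7% and 1.76%. ABCC8, an islet potassium channel subunit and endocrine marker, was past 2-fold higher in both classes, at 4.66 CPM in WT and 10.1 CPM in PIGinH11 in acinar-like and 3.14 and 16.9 CPM in ductal-like nuclei.

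The genes whose levels over the 11 classes of both libraries (22 points) were most like each of the 9 were found by Pearson's r of log2(CPM + 5) among 10785 genes. The points of a library share its depth and free RNA, so r is a description. For PTPRD these were NEGR1 (0.96), FAIM2 (0.91) and SH3GL3 (0.90), and for DGKB PCSK1 (0.91), the proinsulin convertase, and FAM189A1 (0.90) were among them. GRB10 was closest to RBMS2 (0.90), MASP2 (0.86) and EFEMP1 (0.84), TCF7L2 to APLP2 (0.90), WWC2 (0.89) and NFIA (0.87), and KCNQ1 to MAP3K13 (0.90), VEPH1 (0.86) and RBBP8NL (0.86). JAZF1 was closest to RFX2 (0.83), PDE1C (0.83) and APBB1 (0.82), and ADAMTS9 to DDAH2 (0.85), ACTN4 (0.77) and MAGI1 (0.76). For GLIS3 they were DIPK2A (0.81), VLDLR (0.78) and COMMD6 (0.72), and for GRK5 SLC12A2 (0.87), TRIB2 (0.86) and SLC30A4 (0.82). RBMS2, EFEMP1 and RFX2 were among the markers used to name classes. Among the 9 genes themselves, JAZF1 and PTPRD were the most alike (0.71).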

How the data were processed

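Per the study's methods, nuclei were loaded on a droplet instrument, reads were aligned to Sscrofa11.1 and UMIs were counted with Cell Ranger 3.1.0 (the file headers name 5.0.0). The authors deposited the UMI counts per gene and barcode, not normalized, and used Seurat 3.1.1 afterwards. Their cell annotation was not used here, so classes were rebuilt. Nuclei had 270 to 3700 genes, under 13000 UMIs (1 digit more than the methods print, since that limit would contradict the depth) and under 10% mitochondrial UMIs. Doublets (1484 WT and 1791 PIGinH11 barcodes) were removed by a simulation-based score at 0.8% per 1000 barcodes. Clustering used scanpy 1.11.5 and igraph 0.11.9 with 2000 variable genes, 30 components, a Harmony correction and Louvain resolution 1. The 148 genes reported here and the ribosomal and mitochondrial genes were kept out of the variable genes. Classes were named from marker lists that the authors partly chose on the same libraries. Another 348 WT and 135 PIGinH11 nuclei had no marker-based name, nor did 8 and 3 further endocrine and 6 and 9 further immune nuclei. A gamma-like subcluster (6 WT and 53 PIGinH11 nuclei) was among those left out as mixed.

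UMIs were summed per class and library and divided by the class total. Levels have exact Poisson, shares Clopper-Pearson and ratios conditional binomial intervals at 95%. Ratios need 20 UMIs in each library. Counts were simulated as Poisson draws from the class means, the counting error that the intervals assume. For the acinar-like comparison, 96.1% of intervals over 15023 genes held the true ratio, and 95.8% over 3508 genes for the beta-like one. UMIs that gather in single nuclei were not simulated, so this checks the computation and not the fit to these data. Of the 31908 genes, 15410 had no symbol in the file and 851 of these were named from RefSeq (Sscrofa11.1), which also gave coordinates. The 9 genes, the lists and the markers were chosen with earlier results of these data known. Named beyond them were the 3 genes most alike in pattern, up to 4 genes with the most UMIs per list, and the 5 highest and 5 lowest ratios of the other risk locus genes in beta-like nuclei. Other relatives were named after their values were seen, for a leading class or a large ratio. A few genes that these rules select are not reported here.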

Additional observations from a re-analysis of the deposited data

Results flagged for a closer look

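For 5 genes the log2 ratio of PIGinH11 over WT had intervals on opposite sides of 0 in a pair of classes. With 1 library per group these differences between classes were not tested. The share of all genes with such a pair of intervals was not computed, so the count of 5 only describes these genes. GLIS3 had 0.74 in macrophage-like and -0.95 in acinar-like nuclei. JAZF1 had 1.88 in ductal-like and -0.64 in delta-like nuclei, and PTPRD had 2.22 in ductal-like and -1.37 in beta-like nuclei. The ductal-like levels behind these were 5.58 and 20.5 CPM for JAZF1 and 4.65 and 21.7 CPM for PTPRD, in WT and PIGinH11. GRK5 had 0.94 in acinar-like and -1.02 in beta-like nuclei, and the acinar-like UMIs per nucleus were 0.0528 in WT and 0.0485 in PIGinH11. The acinar-like ratios of GLIS3 and GRK5 had no value with free RNA subtracted. ADAMTS9 had 0.41 in endothelial-like and -0.77 in ductal-like nuclei.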

How the results depend on the processing

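Genes with a leading class numbered 5 under 8 of 11 alternatives and 4 under the other 3. DGKB in WT beta-like nuclei stood 1.96-fold above delta-like nuclei with the reported genes allowed into clustering and 1.97-fold as a mean over nuclei, and GRB10 in PIGinH11 acinar-like nuclei 1.97-fold above the next class with mixed subclusters kept. Pairs past 2-fold lower numbered 2, but 1 without Harmony, where GRK5 in beta-like nuclei lay at -0.98. They were 0 with nuclei thinned to 500 UMIs, which left under 20 UMIs in a library for both, and 7 with no minimum on UMIs. They were 3 with median-of-ratios scaling, as a mean over nuclei and with mixed subclusters kept. Free RNA was set per gene and library to the lowest UMIs per nucleus among the acinar-like, ductal-like, endothelial-like and stellate-like classes. Pairs past 2-fold higher numbered 7, but 3 with free RNA subtracted (JAZF1 and TCF7L2 in endothelial-like and KCNQ1 in beta-like nuclei). That setting gave no acinar-like value for GLIS3, JAZF1, TCF7L2, GRK5, DGKB, PTPRD and ADAMTS9. For these genes the acinar-like class set the amount subtracted in at least 1 library. The pairs higher were 10 with mixed subclusters kept and 6 with median-of-ratios scaling. They were 8 without Harmony, as a mean over nuclei and with an enzyme-rich cluster counted as acinar-like. They were 4 after thinning (JAZF1, DGKB and PTPRD in acinar-like and DGKB in ductal-like nuclei), 16 with no minimum, and 0 relative to the 200 genes nearest in length. That setting was void in acinar-like and ductal-like nuclei, where 70.9% and 79.9% of genes had a length, so of the 7 only JAZF1 in endothelial-like nuclei had a value, which fell just under 1. Of the single log2 ratios over all alternatives, 675 moved within their interval, 46 moved beyond it and 2 with an interval off 0 changed sign. TCF7L2 became -0.10 in acinar-like nuclei with median-of-ratios scaling and GRK5 became -0.024 in ductal-like nuclei after thinning. The cause of these sign changes was not tested. Keeping the mixed subclusters and counting an enzyme-rich cluster as acinar-like were chosen after seeing the data. Ranking all named classes added none and was not run. No paired analysis was possible because each group has 1 library. At this depth 57 of the 99 pairs of a gene and a class reached the minimum for a ratio.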
